A study of Canis lupus familiaris with 8 samples.

Results

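The comparison described here set stem-like cells sorted from a doxorubicin-resistant canine mammary carcinoma line against stem-like cells sorted from its drug-sensitive parent line. It used 4 of the 8 arrays of the series, chosen by their sample titles: Star CSC arrays 1 and 2 and Stylo CSC arrays 1 and 2, where CSC stands for cancer stem cells. CMT-Stylo is a canine mammary adenocarcinoma line, labelled as not treated. CMT-Star is the subline raised from it over months of rising doxorubicin doses, up to growth at 100 nM, and both of its groups carry the label doxorubicin treated. Whether the drug was in the medium when cells were collected is not given in the sources used here. Both sorted groups were gated by flow cytometry on the same surface and enzyme markers, CD44 present, CD24 absent or low and aldehyde dehydrogenase activity present. The other 4 arrays held the unsorted lines, called Star parent and Stylo parent below. The study set the lines against each other and each line against its own sorted cells, and the contrast of the 2 sorted populations follows from the same 4 groups.

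Several features of the design bear on every value. CMT-Star is 1 resistant subline, so the line and what selection with the drug did cannot be told apart. All Stylo arrays were on 1 slide and all Star arrays on another, scanned separately, so slide and line cannot be told apart either. Each group had 2 arrays, and nothing states that these came from separate cultures or sorts, so a p-value here speaks only of array-to-array spread, which could be technical. In bulk RNA, fewer cells of a type and less RNA per cell cannot be told apart.

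Doxorubicin is an anthracycline that intercalates into DNA, traps topoisomerase II on broken DNA and is reduced by flavin enzymes in cycles that form reactive oxygen species. Resistant cells are known for pumping the drug out through ATP-driven transporters, chiefly P-glycoprotein, the product of ABCB1. Stem-like carcinoma cells are commonly enriched by high CD44, low CD24 and aldehyde dehydrogenase activity, which marks cells able to detoxify aldehydes. The interferon-induced antiviral genes and the antigen presentation genes of the major histocompatibility complex (MHC) are switched on by interferons, while decorin, type I collagen and chemokines are secreted products typical of stromal and inflammatory cells.

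Levels are given as log2 of the processed spot signal minus that array's 75th percentile, so a level of 0 is the 75th percentile of the array. A probe counted as measured where the scanner software marked it well above background. It was tested where that held on both arrays of either sorted group, which left 25940 probes, of which 22493 were well above background on all 4 arrays. A gene was called higher or lower where limma gave a Benjamini-Hochberg adjusted p under 0.05 over all tested probes and the change was at least 2-fold, and the words rose and fell are used only of such calls. Changes are Star CSC minus Stylo CSC with their standard error (SE, n = 2 arrays per group). Where both arrays of a group were at background, only a bound is given, written as at least N-fold, and any other change printed for such a gene is a fitted value. Such a gene entered the test through the other sorted group, so it could only differ toward that group. Of 43603 gene probes, 2353 (5.40%) could be given a symbol, and 954 named genes were tested, each through its brightest probe.

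The 75th percentile signal was 297 to 311 for Stylo CSC and 469 to 540 for Star CSC, with 55.5% to 56.1% and 57.6% to 60.7% of spots well above background. The 100 brightest spots held 21.9% and 22.7% of all signal on the Stylo CSC arrays and 12.7% and 14.96% on the Star CSC arrays, and the part this played in any result was not tested. Over 25856 probes the replicates correlated at 0.996 (Stylo CSC) and 0.985 (Star CSC), and arrays of different groups at 0.907 to 0.920. Milk protein genes (CSN2 and LALBA) and the estrogen receptor ESR1 were at background on the sorted arrays. The cell adhesion gene CDH1, the keratin KRT14 and the progesterone receptor PGR were well above background on all 4.

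Of the 25940 probes, 7610 (29.3%) were called, 3294 higher (12.7%) and 4316 lower (16.6%) in Star CSC, and 2337 of them passed 4-fold. The split depended on the scaling: 43.3% of calls were higher here, against 56.7% with arrays aligned on their median and 73.6% with arrays aligned on spike-in controls. Those settings moved the median change of all probes from -0.10 to 0.10 and 0.42. Among named genes 360 of 954 (37.7%) were called, 154 higher (16.1%) and 206 lower (21.6%), with a median change of -0.19. The levels of the 2 groups did not overlap for 842 of the 954 (88.3%), so lack of overlap was the common case for any gene. The counts of each gene list below are to be read against these shares.

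**Figure D1:**
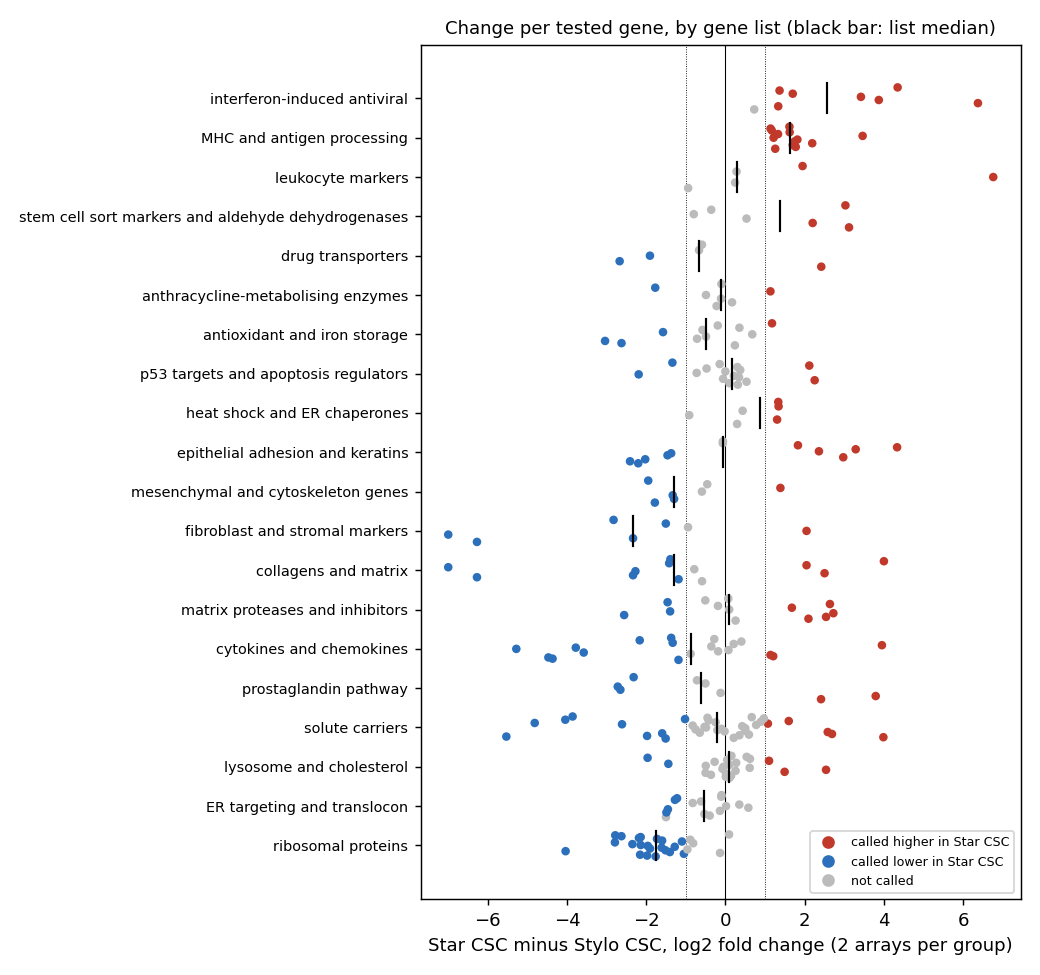
Change of every tested gene in 20 gene lists, as log2 Star CSC minus Stylo CSC on the horizontal axis, with red points called higher, blue points called lower, grey points not called, black bars at the list medians and dotted lines at 2-fold. Points of genes at background in 1 group are fitted values, not bounds. The antiviral list (median 2.56) and the MHC list (median 1.62) lie to the right, and the ribosomal protein list (median -1.74) and the fibroblast list (median -2.33) lie to the left.

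Antiviral genes were higher in the resistant sorted cells. Of 9 interferon-induced genes on the array 8 were tested and 7 rose (median change 2.56), against 16.1% of all named genes, and none fell. MX1, a GTPase that blocks viral replication, read 5.76 and 5.66 on the Star CSC arrays and 1.83 and 1.84 on the Stylo CSC arrays. Both Star CSC arrays lay far above both Stylo CSC arrays, a change of 3.87 ± 0.07 (14.7-fold, adjusted p = 0.000662).

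The oligoadenylate synthetases sense double-stranded RNA and make a short oligoadenylate messenger, and 3 of them rose with levels measured in both groups. OAS1 read 4.20 and 4.26 in Star CSC and 0.73 and 0.88 in Stylo CSC, a change of 3.42 ± 0.09 (10.7-fold, adjusted p = 0.000724). OAS2 was far above the 75th percentile in both groups, at 6.005 and 6.07 against 4.33 and 4.35, and rose by 1.70 ± 0.07 on this probe, while its other probe changed by 1.102 ± 0.39 and was not called (adjusted p = 0.0777). OAS3 read -2.85 and -2.79 against -4.28 and -4.09 and rose by 1.37 ± 0.10. None of the 3 showed overlap between the groups, like 88.3% of all named genes.

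OASL, a relative of the synthetases, was well above background only in Star CSC (-1.33 and -1.40) and was at least 10.8-fold higher there. IFGGC1 was likewise measured only in Star CSC (-0.22 on both arrays) and was at least 23.8-fold higher. These genes entered the test through the Star CSC arrays, so they could only differ upward. EIF2AK2, the kinase PKR that halts translation on double-stranded RNA, read -0.81 and -0.76 against -2.21 and -2.04 and rose by 1.33 ± 0.09. The interferon-induced chemokine CXCL10 changed by 0.73 ± 0.06, short of 2-fold (1.25 and called higher with spike-in scaling), and the interferon gene IFNB1 was at background on all 4 arrays. With normexp background correction 5 of the 8 were called (median 1.62), and the calls of OAS3 and EIF2AK2 ended at 0.26 and 0.90.

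Antigen presentation genes were also higher. Of 16 MHC and antigen processing genes on the array, 13 passed the filter and all of these 13 were called higher (1.14 to 3.47, median 1.62). In all, 9 of the 13 were well above background on all 4 arrays, DLA-DMB and DLA-DQB1 on 1 of the 2 Stylo CSC arrays, and DLA-79 and DLA-DRA on neither, so those last 2 had to differ upward to be tested.

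The class II chain HLA-DRB1, which presents peptides to helper T cells, showed the largest change, at 1.12 and 1.098 in Star CSC and -2.44 and -2.27 in Stylo CSC (3.47 ± 0.09, 11.0-fold, adjusted p = 0.000724). Its groups were far apart, and its 2 other tested probes were also called higher. DLA-DMB, which loads peptides on class II, read -2.67 and -2.43 against -5.24 and -4.25 and rose by 2.19 ± 0.39, with another probe at 0.78 ± 0.23 that was not called. DLA-DMA, its partner chain, read -0.78 and -0.64 against -2.53 and -2.29 and rose by 1.70 ± 0.12. DLA-DRA, also of class II, was at least 1.15-fold higher, a bound well under 2-fold, and its call ended without Star CSC array 2 (fitted change 1.77, adjusted p = 0.0554).

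Among class I genes, DLA-79 was at background in Stylo CSC and was at least 3.40-fold higher. DLA88 read 5.74 and 5.77 in Star CSC against 4.57 and 4.50 in Stylo CSC, and DLA-64 read 6.54 and 6.37 against 5.20 and 5.18. Both rose by slightly over 2-fold, at 1.22 ± 0.07 and 1.26 ± 0.09. The peptide transporter subunits TAP1 and TAP2 rose by 1.17 ± 0.06 and 1.14 ± 0.09, and TAPBP, which tethers class I to that transporter, by 1.62 ± 0.10. The immunoproteasome subunits PSMB8 and PSMB9, which cut peptides for class I, rose by 1.33 ± 0.19 and 1.62 ± 0.08. In none of these did the groups overlap, which was the common case (88.3% of all named genes) and adds nothing to the calls. With normexp 7 of the 13 were called (median 1.36), the calls of DLA-79 and DLA-DMB ended (0.32 and 0.41), and the sign of DLA-DRA turned, to -0.25.

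**Figure D2:**
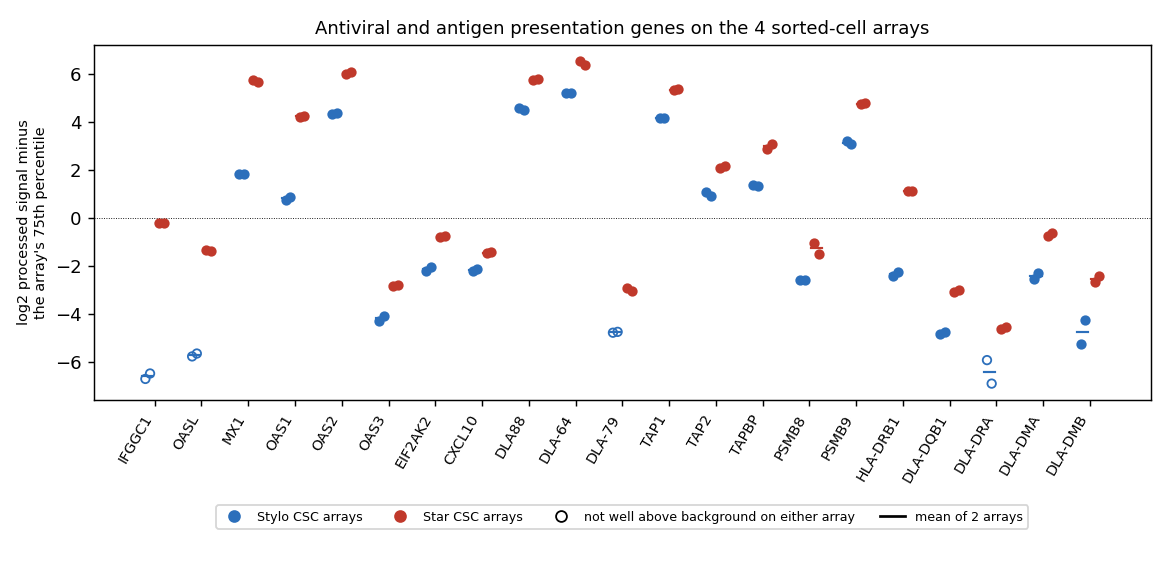
Level on each sorted-cell array (log2 processed signal minus the array's 75th percentile) for the 8 tested antiviral genes and the 13 tested MHC and antigen processing genes, with Star CSC in red, Stylo CSC in blue, bars at the means of 2 arrays and open circles for genes at background on both arrays of a group. The red pair lies above the blue pair for every gene shown, from MX1 at 5.76 and 5.66 against 1.83 and 1.84 down to DLA-DRA, which was at background in Stylo CSC.

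Leukocyte markers were followed beside these lists, since leukocytes carry class II. Of 12 on the array, 5 were tested and 2 rose, and 4 (CD4, CD38, CD80 and MS4A1) were at background on all 4 arrays. The summed signal of the list, in units of an array's 75th percentile, was 1.12 and 1.16 in Star CSC and 0.174 and 0.236 in Stylo CSC. Of the 5 tested, 3 (CD86, TYROBP and FCGR1A) were at background in Stylo CSC and entered through Star CSC, so could only differ upward. CD86 lay close to the 75th percentile in Star CSC and made up most of the sum there. CD86, a costimulatory ligand of antigen-presenting cells, read -0.06 and -0.01 in Star CSC, was at background in Stylo CSC and was at least 27.1-fold higher. TYROBP, a signalling adaptor of myeloid and natural killer cells, read -5.08 and -5.14 and was called higher, with no fold since the bound was under 1, and its sign turned under normexp (-0.23). CD40 changed by -0.94 ± 0.23 and CD79A by 0.25 ± 0.32, and FCGR1A was at background in Stylo CSC, none of them called, although CD40 was called lower without Star CSC array 1 (-1.07) or Stylo CSC array 1 (-1.20). The part of leukocyte transcripts in the antigen presentation results was not tested.

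Drug transporters did not move one way. Of 7 on the array 5 were tested, 1 rose and 2 fell (median change -0.67). ABCB1 read 4.29 and 4.12 in Star CSC and 1.77 and 1.81 in Stylo CSC. The Star CSC arrays were well above the Stylo CSC arrays, a rise of 2.42 ± 0.09 (5.36-fold, adjusted p = 0.000875), and its second probe rose by 2.14 ± 0.23.

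ABCC1, the multidrug resistance protein that exports glutathione conjugates, went the other way. It read -0.60 and -0.64 in Star CSC and 2.22 and 1.88 in Stylo CSC and fell by 2.67 ± 0.14 (6.36-fold, adjusted p = 0.00126). ABCC4, which exports cyclic nucleotides and prostaglandins, read -3.56 and -3.44 against -1.44 and -1.75, a change of -1.90 ± 0.14. Neither showed overlap of the groups, like 88.3% of all named genes. ABCC5 changed by -0.67 ± 0.11 and was not called. MVP, the major protein of vault particles, changed by -0.59 ± 0.07 on its brightest probe and was not called, while 1 of its 2 other probes was called lower (-1.29 ± 0.10). ABCG2 and TOP2A have no named probe and were not analysed here.

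Enzymes that metabolise anthracyclines were mostly not called: of 7 tested, 1 rose and 1 fell. That was the common case, since 37.7% of all named genes were called. The reductases CBR1, CBR3, NQO1 and NQO2 and the oxidase XDH, chosen for this list, have no named probe and were not analysed here. NOS2, the inducible nitric oxide synthase, rose by 1.14 ± 0.11 from a low level, at -2.47 and -2.50 against -3.74 and -3.50, with no call under normexp (0.37). NOS3, the endothelial form, fell, at -1.73 and -1.79 against -0.08 and 0.10 (-1.77 ± 0.09). The flavin reductase POR changed by -0.10 ± 0.08, CYB5R1 by 0.17 ± 0.11 and CYB5R3 by -0.11 ± 0.08. AKR1A1, an aldo-keto reductase that reduces doxorubicin, changed by -0.22 ± 0.06, and the glutathione transferase GSTP1 by -0.49 ± 0.09. With quantile normalization GSTP1 turned to 1.16 and was called higher, which made 2 rises in the list.

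Genes of stem cell marking and aldehyde metabolism were compared between populations that had passed the same gate. Of 8 on the array, 6 were tested and 3 rose, with none lower. ALDH1A1, among these 3, entered the test through Star CSC, so it could only differ upward. CD44 itself read 1.15 and 1.19 in Star CSC and 2.01 and 1.92 in Stylo CSC. Both Star CSC arrays lay below both Stylo CSC arrays, a change of -0.80 ± 0.07 (adjusted p = 0.00301), short of 2-fold and not a call. PROM1, the stem cell surface marker CD133, read 1.95 and 2.06 against -1.11 and -0.94 and rose by 3.03 ± 0.10 (8.17-fold).

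ALDH3A1, a stress-inducible aldehyde dehydrogenase, read 3.86 and 3.96 in Star CSC and 1.67 and 1.74 in Stylo CSC and rose by 2.20 ± 0.08 (4.61-fold). The other tested probe of ALDH3A1 was called higher with a much larger fitted change (6.16 ± 0.07), so the size of the rise depended on the probe. ALDH1A1, the retinaldehyde dehydrogenase most often tied to the sorting assay, read -3.32 and -3.38 in Star CSC, was at background in Stylo CSC and was at least 2.72-fold higher. With normexp its change was 0.22 and not called. ALDH1A2 and KIT were at background on all 4 arrays, and BMI1, a polycomb protein of stem cell renewal, changed by 0.53 ± 0.10 without a call (1.06 and called higher with spike-in scaling). The other tested probe of BMI1 changed in the opposite direction, by -0.75 ± 0.10, also without a call. CD24 and ALDH1A3 have no named probe, so the CD24 side of the gate was not analysed here.

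Matrix genes included the large falls of decorin and type I collagen. Of 16 collagens and matrix genes 12 were tested, 7 fell and 3 rose (median -1.28), against 21.6% lower and 16.1% higher among all named genes, and 4 to 6 fell under the 6 other scalings or corrections. DCN, decorin, a proteoglycan that binds collagen fibrils, read -4.29 and -4.27 in Star CSC and 2.67 and 2.76 in Stylo CSC, a change of -7.00 ± 0.07 (128-fold, adjusted p = 0.000662). COL1A1, the main chain of type I collagen, read -2.36 and -2.50 against 3.90 and 3.79, a change of -6.27 ± 0.09 (77.2-fold). Its other tested probes were also called lower, with smaller changes (-3.83 ± 0.20 and -3.45 ± 0.49). By the brightest probes, DCN and COL1A1 showed the largest changes of the list.

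COL1A2, the second chain of type I collagen, was far above the 75th percentile in both groups, at 6.78 and 6.92 against 9.13 and 9.23 (-2.33 ± 0.09). Of its 5 other probes 2 were called lower and the remaining 3 changed by -0.93 to -0.34 without a call, and with quantile normalization the call of the brightest probe ended too (-0.87). FBN1, the microfibril protein fibrillin, fell from 4.73 and 4.81 to 3.34 and 3.37 (-1.42 ± 0.07, no call with spike-in scaling at -0.89), TNC, tenascin C, changed by -1.39 ± 0.08, and BGN, the proteoglycan biglycan, by -1.18 ± 0.09. COL7A1, the anchoring fibril collagen, was called lower (-2.27 ± 0.65, adjusted p = 0.0478), with Star CSC arrays at -5.46 and -7.20, of which 1 was well above background, and Stylo CSC arrays at -4.05 and -4.07.

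Other matrix genes rose. SMOC2, a secreted calcium-binding matricellular protein, read 2.41 and 2.47 in Star CSC and -1.52 and -1.60 in Stylo CSC and rose by 4.003 ± 0.07 (16.03-fold). DPT, dermatopontin, rose by 2.05 ± 0.08, from -1.59 and -1.64 to 0.38 and 0.49. COL2A1, a cartilage collagen, was measured only in Star CSC and was at least 1.39-fold higher, with its sign turned under normexp (-0.16). It entered the test through Star CSC, so it could only differ upward.

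The 7 fibroblast and stromal markers, which share DCN, COL1A1, COL1A2 and DPT with the matrix list, were all tested. Of these, 5 fell and 1 rose (median -2.33), with 3 falls and a median of -0.87 under quantile normalization, and their summed signal was 262 and 287 in Star CSC against 1043 and 1082 in Stylo CSC. COL1A2 and S100A4, the brightest members, made up most of that sum on every array. THY1, a glycoprotein of fibroblasts and stem-like cells, read 1.92 and 1.98 against 4.80 and 4.74 (-2.82 ± 0.07). S100A4, a calcium-binding protein of motile cells, changed by -1.50 ± 0.08 (7.19 and 7.32 against 8.76 and 8.76). The part of stromal transcripts in the matrix result was not tested.

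Of 36 cytokines and chemokines on the array 19 were tested, 9 fell, 3 rose and 7 were not called (median -0.88). With spike-in scaling 6 fell (median -0.35). CCL2, the monocyte chemoattractant, read 2.28 and 2.41 in Star CSC and 6.67 and 6.75 in Stylo CSC, a change of -4.36 ± 0.08 (20.6-fold, adjusted p = 0.000662). CCL8, a related monocyte chemokine, read -1.70 and -1.53 against 1.90 and 2.02 (-3.58 ± 0.10). CCL20, which attracts cells bearing CCR6, read -5.55 and -4.95 against -0.83 and -0.73 (-4.47 ± 0.24).

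CXCL8, the neutrophil chemokine interleukin 8, showed a large fall with a large error. Its Star CSC arrays read -2.05 and 1.47 and its Stylo CSC arrays 5.05 and 4.93, a change of -5.28 ± 1.33 (38.8-fold, adjusted p = 0.0343). Both Star CSC arrays lay below both Stylo CSC arrays, but they differed from each other by more than 10-fold, and its call ended without Stylo CSC array 1 (-5.22, adjusted p = 0.146) or array 2 (-5.33, adjusted p = 0.140). All 3 of its other tested probes were called lower. IL6 fell by 2.16 ± 0.09, IL10 was at background in Star CSC and at least 4.78-fold lower, and NFKB1, a subunit of the transcription factor that drives many of these genes, changed by -1.37 ± 0.07.

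The 3 that rose were the decoy receptor IL13RA2 and the chemokines CCL5 and CCL24. IL13RA2, which binds interleukin 13, read 0.12 and 0.32 in Star CSC and -3.68 and -3.79 in Stylo CSC and rose by 3.95 ± 0.10 (15.5-fold, adjusted p = 0.000731). CCL5 rose by 1.14 ± 0.23 and CCL24 by 1.21 ± 0.11. The other 17, among them TNF, IL1A and IL1B, were not tested because they were not well above background on both arrays of either group.

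Of 8 tested genes of the prostaglandin pathway 3 fell, 2 rose and 3 were not called. PTGS2, cyclooxygenase 2, fell from 2.66 and 2.79 to 0.39 and 0.43 (-2.32 ± 0.08). PTGES, which makes prostaglandin E2, fell from 5.77 and 5.69 to 2.92 and 3.11 (-2.72 ± 0.10), and the receptor PTGER4 changed by -2.65 ± 0.07. PTGDS, which makes prostaglandin D2, rose from -2.04 and -1.91 to 1.83 and 1.81 (3.80 ± 0.08, 13.9-fold). HPGD, which breaks prostaglandins down, was at least 1.72-fold higher, with its sign turned under normexp (-0.22) and its call ended without Stylo CSC array 1 (fitted change 2.29). It was at background in Stylo CSC and entered the test through Star CSC, so it could only differ upward.

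**Figure D3:**
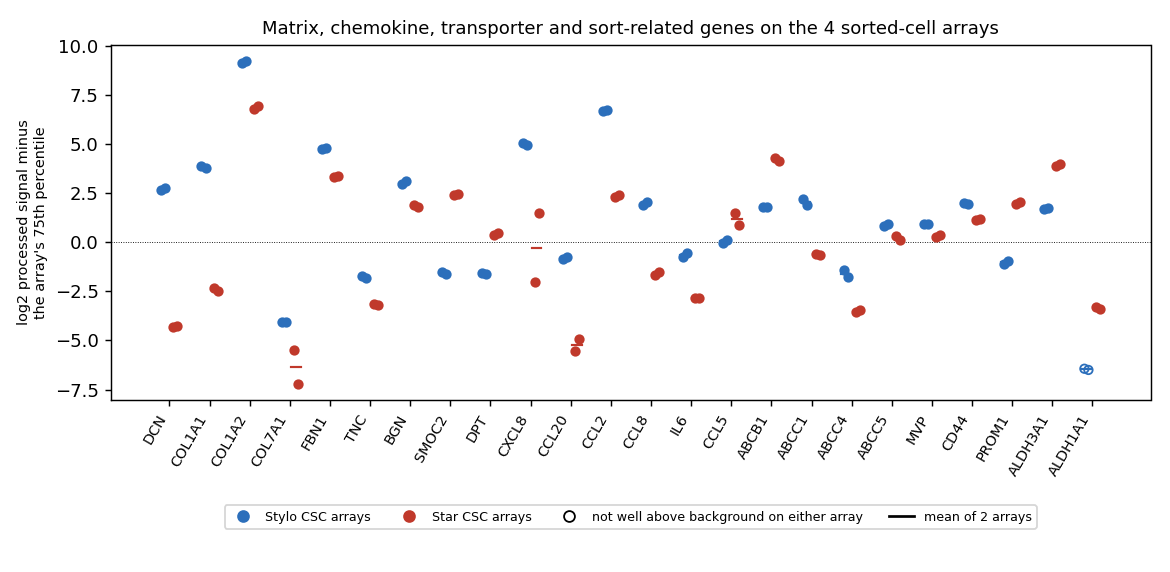
Level on each sorted-cell array (log2 processed signal minus the array's 75th percentile) for matrix, chemokine, drug transporter and sort-related genes, with Star CSC in red, Stylo CSC in blue, bars at the means of 2 arrays and open circles for genes at background on both arrays of a group. DCN falls from 2.67 and 2.76 to -4.29 and -4.27, CXCL8 has Star CSC arrays at -2.05 and 1.47, and ABCB1 and ABCC1 move in opposite directions.

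Epithelial genes moved in both directions. Of 14 adhesion and keratin genes 12 were tested, 5 rose and 5 fell (median -0.06). CDH1, E-cadherin, read -2.94 and -2.67 in Star CSC against -0.70 and -0.51 in Stylo CSC (-2.20 ± 0.14), CLDN3, a tight junction claudin, changed by -2.41 ± 0.24 (no call under normexp at -0.94), and JUP, plakoglobin, by -1.46 ± 0.14. KRT15, a keratin of basal progenitors, rose from 2.25 and 2.35 to 4.55 and 4.77 (2.36 ± 0.11). KRT19 was at least 3.80-fold, the mucin MUC1 at least 10.2-fold and the desmosomal cadherin DSG3 at least 1.58-fold higher, all at background in Stylo CSC. These 3 and OCLN were at background in Stylo CSC and entered the test through Star CSC, so they could only differ upward. Under normexp the calls of KRT19, MUC1 and DSG3 ended (0.52, 0.96 and 0.093), and the list held 1 rise and 4 falls.

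Of the cell type lists, 2 of 5 tested luminal markers rose (KRT19 and MUC1) and 2 fell (CDH1 and CLDN3), with a summed signal of 3.15 and 3.26 in Star CSC and 2.77 and 2.90 in Stylo CSC. Both tested members of the basal list fell: KRT14 by 1.37 ± 0.09 and MME, the membrane protease CD10, by 1.45 ± 0.07. With spike-in scaling both calls ended (-0.84 and -0.92). The summed signal of the basal list was 0.733 and 0.803 against 1.99 and 2.03. KRT15, the keratin of basal progenitors that rose, is not in that list, so basal genes as a whole did not move one way.

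Among 7 tested mesenchymal and cytoskeleton genes 4 fell and 1 rose (median -1.29). VIM, vimentin, read 7.48 and 7.59 against 9.41 and 9.55 (-1.95 ± 0.09), ACTB, beta actin, 7.20 and 7.28 against 8.96 and 9.07 (-1.78 ± 0.08), and CDH2, N-cadherin, 3.45 and 3.48 against 4.78 and 4.81 (-1.33 ± 0.06). With quantile normalization or cyclic loess VIM and ACTB were no longer called (-0.33 and -0.99 for VIM, -0.19 and -0.88 for ACTB) and 1 gene of the list fell, and CDH2 was not called with spike-in scaling (-0.80). SNAI2, a transcriptional repressor of E-cadherin, rose by 1.39 ± 0.09.

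Of 5 tested Wnt genes 2 fell, WNT5A and CTNNB1, and of 4 immediate early genes 2 fell, NR4A1 and FOSB. WNT5A, a ligand of non-canonical Wnt signalling, read -2.17 and -2.94 in Star CSC and 2.71 and 3.34 in Stylo CSC, a change of -5.58 ± 0.38 (47.8-fold, adjusted p = 0.00183). NR4A1, an immediate early nuclear receptor, read -4.01 and -4.34 against 1.497 and 1.53 (-5.69 ± 0.14), and FOSB, an immediate early subunit of AP-1, fell by 2.36 ± 0.15. CTNNB1, beta-catenin, counted among the epithelial falls as well, fell by 2.02 ± 0.23 on its brightest probe, and of its 3 other probes 1 was called lower and the others changed by -0.46 and 0.22. Among receptors, FGFR2, which binds fibroblast growth factors, fell by 2.28 ± 0.07, EDNRB, the endothelin B receptor, rose by 3.61 ± 0.17, and ERBB2 changed by -0.80 ± 0.07 without a call.

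Apoptosis and repair genes were mostly not called, which was the common case, since 37.7% of all named genes were called. Of 16 tested p53 targets and apoptosis regulators 2 rose and 2 fell. BCL2, an inhibitor of mitochondrial apoptosis, rose from -0.20 and -0.40 to 1.67 and 2.24 (2.25 ± 0.23, 4.77-fold), and MDM2, the ubiquitin ligase of p53, from -0.10 and -0.31 to 1.94 and 1.89 (2.12 ± 0.10). XIAP, a caspase inhibitor, fell by 1.34 ± 0.06, with no call under spike-in scaling (-0.81). BIRC5, survivin, a mitotic inhibitor of apoptosis, was called lower at -2.19 ± 0.55, with Star CSC arrays at 0.21 and 1.67 against 3.12 and 3.13, and its call ended without Stylo CSC array 1 (-2.19, adjusted p = 0.145) or array 2 (-2.19, adjusted p = 0.144). CDKN1A has no named probe and was not analysed here.

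CCND1, cyclin D1, rose from 2.85 and 2.94 to 4.72 and 5.36 (2.14 ± 0.25, 4.41-fold), and it and BIRC5 were the only calls among 4 tested cell cycle genes. Among the 5 tested genes of doxorubicin targets and break repair, BRCA1 was at least 3.24-fold higher, at background in Stylo CSC, and its sign turned under normexp (-0.08). BRCA1 entered the test through Star CSC, so it could only differ upward. ATM, the kinase that signals DNA breaks, fell by 1.08 ± 0.06, but it was called under only 1 of the 6 other scalings or corrections, cyclic loess, and changed by -0.98 to -0.55 under the rest.

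Iron storage and redox genes gave 3 falls and 1 rise among 11 tested (median -0.49, above 0 with quantile, cyclic loess and spike-in scaling). With quantile normalization 4 rose and 3 fell, and with cyclic loess or spike-in scaling 2 rose and 3 fell. FTL, ferritin light chain, fell by 3.04 ± 0.10 on its brightest probe, yet its 3 other probes changed by -0.999, -0.69 and 0.44 and were not called. FTH1, ferritin heavy chain, fell by 2.62 ± 0.14 in a fit on 3 arrays, since Star CSC array 1 had no usable spot, and 3 of its 4 other probes were called lower. MT2A, a metal-binding metallothionein, fell by 1.57 ± 0.11, and TXNRD1, thioredoxin reductase, rose by 1.18 ± 0.10.

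Of 35 tested solute carriers 9 fell and 5 rose, with amino acid transporters in both directions; the list median, -0.20, turned to 0.32 with spike-in scaling. SLC7A11, the cystine importer that feeds glutathione synthesis, read -4.96 and -4.77 in Star CSC and -0.74 and -0.90 in Stylo CSC (-4.04 ± 0.11, 16.5-fold, adjusted p = 0.00075). SLC3A2, its heavy chain partner, read 1.30 and 1.36 against 3.81 and 4.07 (-2.61 ± 0.12). Both were lower on both Star CSC arrays. SLC1A3, a glutamate transporter, fell by 5.53 ± 0.33 and SLC1A5, a glutamine transporter, by 1.98 ± 0.08. In the other direction SLC1A1, also a glutamate transporter, was at least 6.59-fold higher.

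Ribosomal protein genes were lower as a list: 21 of 26 fell and none rose (median -1.74). RPS10 read 5.08 and 5.16 in Star CSC and 7.88 and 7.94 in Stylo CSC (-2.79 ± 0.07), and RPSA and RPS4X changed by -2.78 ± 0.08 and -2.62 ± 0.08. With quantile normalization 9 fell and 1 rose (median -0.43), and with cyclic loess 11 fell (median -0.92). In the unsorted lines all 26 were called lower in Star parent (median -2.98). Such genes have many near-identical processed copies, so a probe may read more than 1 gene. Of 15 ER targeting and translocon genes 4 fell, with the sign of the list median turned by quantile normalization (0.27). The count was 2 with quantile normalization and 1 with cyclic loess, while with spike-in scaling none fell and 1 rose. Among the genes that fell, the other tested probes of SEC61A1 (-0.047 and -0.14) and SSR1 (-0.40) were not called. None of 3 translation factors or 6 respiratory genes was called.

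Among 6 tested chaperones 3 rose: the small heat shock proteins HSPB1 (1.34 ± 0.15) and HSPB8 (1.34 ± 0.09) and the HSP70 partner DNAJA1 (1.31 ± 0.11). The other probes of HSPB8 (0.96 ± 0.31) and DNAJA1 (0.56 ± 0.07) were not called. Of 23 lysosome and cholesterol genes 3 rose and 2 fell, a share of rises no higher than the 16.1% of all named genes, with CTSS, cathepsin S, which trims the class II invariant chain, at 2.54 ± 0.17 (no call under normexp at 0.74) and CTSC, the cathepsin that activates granule proteases, at 1.496 ± 0.06.

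The largest changes measured on all 4 arrays were those of MAL and GCG. MAL, a proteolipid of apical membrane transport, read -4.32 and -4.36 in Star CSC and 3.37 and 3.35 in Stylo CSC (-7.70 ± 0.06, 208-fold, adjusted p = 0.000662). GCG, the glucagon precursor, read 4.33 and 4.63 against -3.01 and -3.11 (7.54 ± 0.14, 186-fold). APOA2, an apolipoprotein of high density lipoprotein, rose by 5.38 ± 0.20, and RPE65, a retinoid isomerase, fell by 4.77 ± 0.13. In each the replicates lay close together and the groups far apart.

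Among genes at background in Stylo CSC the largest bounds were those of the carboxylesterase CES1 (at least 42.6-fold higher), the cholinesterase BCHE (at least 40.7-fold), the ER protein RTN1 (at least 27.99-fold), CD86, IFGGC1, the monooxygenase FMO1 (at least 16.2-fold), the lipid-sensing receptor PPARA (at least 11.1-fold, no call under normexp) and OASL. Among genes at background in Star CSC they were those of SLC46A2 (at least 20.9-fold lower), the iron hormone HAMP (at least 20.5-fold), the endothelial selectin SELE (at least 13.1-fold), the carbonic anhydrase CA3 (at least 12.1-fold), the lipase LIPC (at least 10.5-fold, its call ended without Stylo CSC array 1 at adjusted p = 0.0826 or array 2 at 0.0857) and the prostaglandin transporter SLCO2A1 (at least 9.01-fold).

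The same contrast between the unsorted lines used 4 other arrays, of which the Stylo parent arrays were dim (75th percentile signal 69.5 and 88.8). There 14741 probes (56.8%) were called, 25.2% higher and 31.6% lower, and 569 named genes (59.6%), 21.6% higher and 38.1% lower. Of the probes called between sorted cells 4119 were called with the same sign between unsorted cells, 54.1% of the sorted calls and 27.9% of the unsorted ones, and 813 were called with the opposite sign. Among named genes 74 were higher in both pairs and 138 lower in both, while 20 were higher in the sorted pair and lower in the unsorted one and 18 the reverse. Of these 38 opposite calls only 6 had a fold measured in both pairs, and the others involved a group at background. The pairs share slides but no array.

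ABCB1 was higher by a similar amount in both settings, 2.42 between sorted and 2.52 between unsorted cells (difference -0.10, not called). For ALDH3A1 these were 2.20 and 2.02 on its brightest probe, and for BCL2 2.25 and 2.03, neither difference called. The difference between the settings, tested as the interaction in a fit of all 8 arrays, was called for 13592 probes (52.4%, with 27.9% above and 24.5% below 0) and 518 named genes (54.3%), 312 above and 206 below 0 (32.7% and 21.6%). Of the called probes 53.2% lay above 0, against 68.4% with normexp, 46.0% with quantile normalization and 45.6% with median scaling, so the side of the majority depended on the setting.

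ABCC1 was such a gene: it was not called between unsorted cells (0.99) but fell between sorted cells, a difference of -3.66. Its unsorted change was just short of 2-fold, and was 1.39, 1.23 and 2.17 with median, detected-probe and spike-in scaling. With quantile normalization, cyclic loess and normexp it was 0.97, 0.90 and 0.19. CD44 was called higher in Star parent (1.08) and not called between sorted cells (-0.80), a difference of -1.87. CCL2 changed by -0.38 between unsorted and by -4.36 between sorted cells, a difference of -3.98, and its unsorted change lay between 0.02 and 0.97 under 5 of the 6 other scalings or corrections.

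Directions were opposite for several genes. COL1A2 and FBN1 were called higher in Star parent (1.096 and 3.02) and lower in Star CSC, differences of -3.43 and -4.44. IL13RA2, SLPI and DPT were called lower in Star parent (-3.05, -2.25 and -2.07) and higher in Star CSC, differences of 7.01, 4.89 and 4.12. SLPI, a secreted inhibitor of leukocyte proteases, read 1.54 and 1.55 in Star CSC against -1.16 and -1.03 in Stylo CSC (2.64 ± 0.08). With spike-in scaling the unsorted change of DPT was -0.89. Each of these differences kept its sign under all 6 other scalings or corrections tried.

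**Figure D4:**
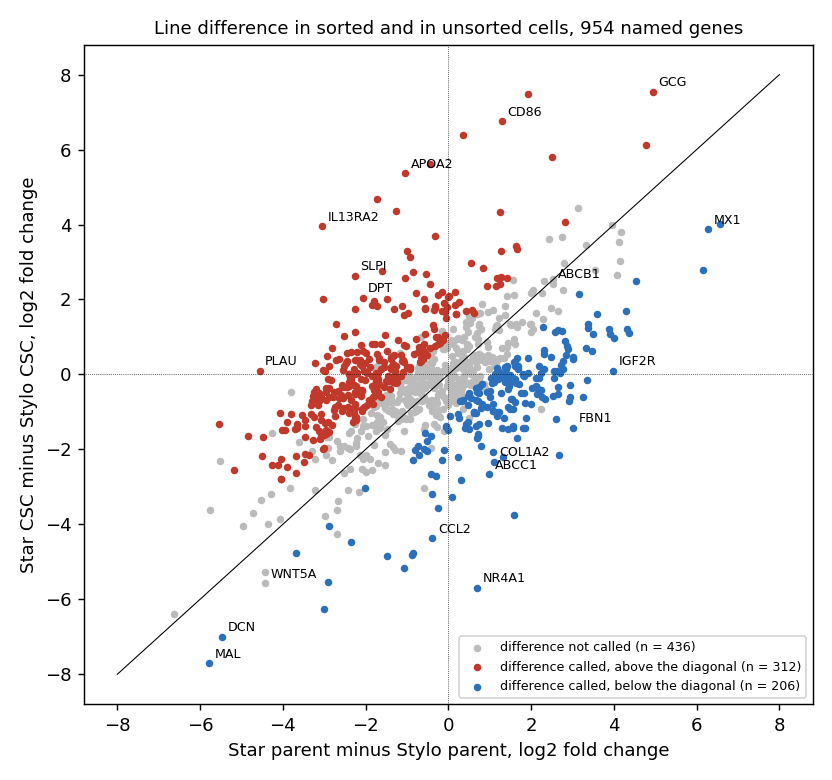
Change between unsorted lines (horizontal, Star parent minus Stylo parent) and between sorted cells (vertical, Star CSC minus Stylo CSC), both log2, for 954 named genes, with the diagonal where both are equal. Red points (312) and blue points (206) have a called difference above and below the diagonal, grey points (436) have none, and values of genes at background in a group are fitted values. ABCB1 lies near the diagonal at 2.52 and 2.42, and IL13RA2 lies in the upper left at -3.05 and 3.95.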

How the data were processed

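RNA of 8 samples, 2 per group, was hybridised to 1-colour canine Agilent arrays. Per the file headers, the authors quantified the scans in Agilent Feature Extraction 11.5.1.1, whose files give a processed intensity and flags per spot. The deposited matrix holds log2 values, which closely matched the scanner log2 signal minus each array's 75th percentile, with the median of the 8 arrays removed from every probe (column medians -0.27 to 1.01).

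Groups came from sample titles. Control and outlier spots were left out, no spot was saturated, and log2 processed signal was averaged per probe and scaled to the array's 75th percentile. Signal over background and the 2 arrays per group limit precision. limma 3.58.1 in R 4.3.3 was fitted to the 4 sorted-cell arrays (lmFit, eBayes), and to all 8 arrays for unsorted cells and the difference. The fit was tested on simulated data. A bound sets the bright group's mean against the dim group's mean, where each dim value was raised to that array's lowest measured signal.

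Names were matched by unversioned accession to RefSeq's gene table of assembly UU_Cfam_GSD_1.0, used for names only. Coordinates are not given and sequences were not used here. Named are the 12 largest rises and falls measured on all 4 arrays, up to 4 called members per list (all tested members of 5 lists), a fixed set of 15 genes, the 8 largest bounds each way and the 6 largest sorted-minus-unsorted differences each way. A gene that this rule names is not reported here. Other genes, named to complete a list, were chosen after their values were seen. The members of the comparison and the 43 gene lists were chosen with earlier results of these data known. Same-numbered replicates did not deviate together (correlation 0.038), so no pairing was used. Alternatives covered scaling, background correction, filter, model, threshold and left-out arrays.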

Additional observations from a re-analysis of the deposited data

Results flagged for a closer look

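These results differed between sorted and unsorted cells by the interaction test of limma in the fit of all 8 arrays, given as the Star minus Stylo change in sorted cells minus that in unsorted cells (log2). The test called 13592 probes, so a called difference was the common case. The Stylo parent arrays were dim, and their part in these differences was not tested.

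Differences below 0 were those of ABCC1 (-3.66), CCL2 (-3.98), CD44 (-1.87), COL1A2 (-3.43), FBN1 (-4.44), MVP (-2.85), NR4A1 (-6.39), IGF2R (-3.87), ADGRL2 (-5.33) and ADORA2A (-4.83). IGF2R, the receptor that carries lysosomal enzymes, changed by 0.10 between sorted and 3.98 between unsorted cells. ADGRL2, an adhesion G protein-coupled receptor, and the adenosine receptor ADORA2A fell between sorted cells (-3.75 and -2.16) and were at background in Stylo parent, and NR4A1 was at background in both parent groups. Their differences are therefore fitted values against background, and with normexp they were -2.61, -1.83 and -2.20.

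Differences above 0 were those of APOA2 (6.42), CA2 (4.23), DPT (4.12), IL13RA2 (7.01), PLAU (4.65) and SLPI (4.89). CA2, a carbonic anhydrase, changed by -1.31 between sorted and -5.54 between unsorted cells. The sorted change was called in the fit of 4 arrays but not in that of all 8 (limma adjusted p = 0.104) or with spike-in scaling (-0.79), and its other probe (-0.69) was not called. PLAU, the urokinase protease, changed by 0.10 between sorted and -4.56 between unsorted cells, and its other probe was called higher between sorted cells (1.88). The unsorted change of APOA2, -1.04, turned to 0.13 with spike-in scaling.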

How the results depend on the processing

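The count of 7610 probes stayed within 1.5 times under every alternative but 2: it was 4041 with normexp and 2337 at 4-fold. Leaving out 1 array gave 6715 to 8335. With the replicate number as a block it was 7528, and with the numbers crossed, an alternative chosen after seeing the data, 7494. The block ended 1 call among 142 named genes, that of SEC61A1. For the sorted-minus-unsorted difference, 13592 probes became 13558 with the replicate block and 12723 to 13464 without 1 array, and 53.2% of calls above 0 became 68.4% with normexp, 46.0% with quantile normalization and 45.6% with median scaling.

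Signs turned under normexp for BRCA1 (-0.082), COL2A1 (-0.16), DLA-DRA (-0.25), HPGD (-0.22), KCNIP2 (-0.31), KDR (-0.13), MMP3 (-0.0061) and TYROBP (-0.23), all at background in Stylo CSC, and under quantile normalization for SSR2 (0.34) and GSTP1 (1.16, then called higher). The cause was not tested. Normexp ended 22 other calls, spike-in scaling 15, quantile normalization 7 and cyclic loess 5. Without Stylo CSC array 1 or 2, 12 and 10 calls ended, in both cases CXCL8, BIRC5, LGALS9, MMP3, RPL21, SREBF1, LIPC, PPARG, CA1 and SEC61A1. Without Star CSC array 2 the calls of DLA-DRA and RAB27A ended. Signal near background limits the dim genes, for which only bounds are given.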

Other observations

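Carbonic anhydrases, which interconvert carbon dioxide and bicarbonate, were lower: all 4 tested of 5 on the array fell. CA9, the hypoxia-induced membrane form, read 1.30 and 1.53 in Star CSC and 3.06 and 3.05 in Stylo CSC (-1.64 ± 0.11), and CA2 fell by 1.31 ± 0.15, with no call under spike-in scaling (-0.79). CA3 and CA1 were at background in Star CSC, at least 12.1-fold and 2.34-fold lower, and entered the test through Stylo CSC, and the call of CA1 ended without Stylo CSC array 1 (fitted change -1.83, adjusted p = 0.0576) or array 2 (-1.82, adjusted p = 0.0568). Of 10 hypoxia and glycolysis genes 2 fell, CA9 and the stress gene NDRG1 (-1.44 ± 0.08, no call with spike-in scaling at -0.92), and none rose (median -0.68).

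Galectins, which bind galactosides on cell surfaces, split. LGALS3 read 6.83 and 6.62 against 8.61 and 8.59 (-1.87 ± 0.10), with no call under quantile normalization (-0.50), LGALS12 fell by 1.63 ± 0.14, with no call under normexp (-0.82), and LGALS9 was called higher at 2.78 ± 0.64, with Star CSC arrays at 6.18 and 4.48 against 2.50 and 2.62. The call on this probe ended without Stylo CSC array 1 (2.71) or array 2 (2.84), while the other tested LGALS9 probe was called higher (3.79 ± 0.07). Of 7 tested mucosal defence genes 4 fell, among them the trefoil factor TFF1 (-2.27 ± 0.20), the iron-binding LTF (-1.65 ± 0.10) and the oxidase DUOX1 (-1.11 ± 0.06), while SLPI rose. DUOX1 was not called under 4 of the 6 other scalings or corrections (-0.97 to -0.59), the list held 2 falls with median, quantile or spike-in scaling, and under normexp none fell. Of 14 Rab GTPases 1 rose, RAB27A (1.01 ± 0.07), which docks secretory vesicles and fell short of 2-fold without Star CSC array 2 (0.99) or Stylo CSC array 1 (0.96), and of 8 tested potassium and calcium genes 2 rose, the channel subunit KCNMB1 (1.72 ± 0.08) and KCNIP2, at background in Stylo CSC (at least 2.08-fold, its sign turned under normexp to -0.31).

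Some large changes belonged to probes that carry Ensembl transcript accessions and have no symbol here. Between sorted cells the largest of them rose by 7.44 ± 0.18 and another by 6.16 ± 0.07, while others changed by -6.81 ± 0.11 and -6.47 ± 1.46.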
